A study of Mus musculus with 12 samples.

Results

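The genes described here are 6 matrix metalloproteinases (Mmp12, Mmp3, Mmp13, Mmp14, Mmp2 and Mmp10) and 3 of their tissue inhibitors (Timp1, Timp2 and Timp3). They were taken by symbol, whatever their level, and make up 9 of the 19921 gene symbols in the tables. The study gave tumour-bearing mice an immunostimulatory peptide, an antibody that blocks PD-L1, a ligand of the checkpoint receptor PD-1, or both, and read the 5′ ends of transcripts in the cells of the tumour. All mice were BALB/c wild type and carried Colon26, a mouse colon carcinoma line, from 200000 cells placed under the skin of the right flank. The 4 groups of 3 mice were control, minP1 (the peptide, derived from the chromatin protein HMGN1, 0.08 µg into the peritoneum on day 9), anti-PD-L1 (clone 10F.9G2, 200 µg into the peritoneum on days 4 and 8) and the combination of both treatments. Tumours were taken on day 10. The combination is named as such only in the sample titles, since the treatment field of those samples gives the antibody after a plus sign. The labels give neither the age and sex of the mice nor what the controls received in place of either agent.

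Matrix metalloproteinases are zinc-dependent proteases that cut collagens, elastin, laminins and other matrix proteins, and that also release growth factors and shed or trim signalling proteins. Most are secreted as inactive pro-enzymes that are activated by the removal of a propeptide, through plasmin, furin or other metalloproteinases. The Timp proteins bind the active site of the mature enzymes, and Timp2 also takes part in the activation of pro-Mmp2 by the membrane-anchored Mmp14. In tumours these genes are expressed by macrophages, neutrophils, fibroblasts and endothelial cells as well as by carcinoma cells.

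Each library came from the tumour of a separate mouse. Tumour pieces were dissociated enzymatically with collagenase and DNase, and carcinoma cells and dead cells were reduced by Percoll density separation, so the values describe the cells that were left. Totals ran from 285753 to 473273 counts in control, from 276203 to 322613 in minP1, from 188008 to 322493 in anti-PD-L1 and from 133917 to 196109 in the combination, where 2 of the 3 libraries were shallower than all others and the third was deeper than anti-PD-L1 replicate 1. Of 9 epithelial markers, 6 are in the tables, and their summed level lay between 0.0 and 22.4 CPM (counts-per-million, scaled to the depth of each library) in all libraries except combination replicate 2, at 65.6 CPM. The summed level of 12 macrophage markers was 1171 to 1375 CPM in control and 2250 to 4704 CPM in the combination. It was 956 to 1386 CPM in minP1 and 1116 to 1735 CPM in anti-PD-L1, and both ranges overlapped control. The summed level of 12 fibroblast markers was 1377 to 1872 CPM in control and 908 to 1443 CPM in the combination. It was 1249 to 1558 CPM in minP1 and 1052 to 1379 CPM in anti-PD-L1. The share of counts on Bc1 and Lrrc17 together was 1.36% to 2.34% in control, 1.5% to 4.17% in minP1, 2.35% to 4.42% in anti-PD-L1 and 2.49% to 6.32% in the combination. Its group means (1.86%, 2.53%, 3.45% and 4.62%) have the order of those of Mmp12, and its part in the values below was not tested. The libraries with the highest share in minP1 (replicate 2) and in anti-PD-L1 (replicate 1) stood apart from the rest of their groups in an earlier look at these data. Member counts were therefore also taken without these 2 libraries. In bulk samples such as these, fewer cells of a type and less RNA per cell cannot be told apart.

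Mmp13, Mmp12, Mmp3 and Mmp10 lie in this order, all on the plus strand, within 238 kb of mouse chromosome 9. In GRCm38 their gene models run from 7272514 to 7283331 (Mmp13), 7344381 to 7369499 (Mmp12), 7445822 to 7455975 (Mmp3) and 7502352 to 7510240 (Mmp10). The bases upstream of these neighbours are shown because 3 of them moved in the comparisons below, and because binding sites for the transcription factor AP-1, a dimer of Fos and Jun family proteins, are textbook features of metalloproteinase promoters. Each window holds the 250 bases before the transcript start in RefSeq (GRCm38.p6), and capitals mark a match to the AP-1 motif, spelled TGANTCA. They also mark the TATA box motif where it occurs, spelled TATAAA.
Mmp13, chr9:7272264-7272513, plus strand: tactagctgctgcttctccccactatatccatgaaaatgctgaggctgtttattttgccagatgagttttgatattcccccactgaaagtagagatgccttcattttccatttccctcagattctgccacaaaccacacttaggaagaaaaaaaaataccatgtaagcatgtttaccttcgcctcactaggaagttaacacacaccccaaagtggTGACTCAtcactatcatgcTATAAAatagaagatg
Mmp12, chr9:7344147-7344396, plus strand: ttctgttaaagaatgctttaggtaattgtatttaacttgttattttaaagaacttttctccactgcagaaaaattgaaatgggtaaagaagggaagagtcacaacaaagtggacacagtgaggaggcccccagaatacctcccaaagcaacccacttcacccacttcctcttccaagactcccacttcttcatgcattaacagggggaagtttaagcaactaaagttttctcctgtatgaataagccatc
Mmp12 at a second RefSeq start, chr9:7347124-7347373, plus strand: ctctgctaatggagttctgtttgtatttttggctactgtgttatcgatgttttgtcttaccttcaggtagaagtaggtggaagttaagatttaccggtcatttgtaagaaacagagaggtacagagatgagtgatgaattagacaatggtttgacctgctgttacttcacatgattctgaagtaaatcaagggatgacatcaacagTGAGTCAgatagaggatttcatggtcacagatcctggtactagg
Mmp3, chr9:7445572-7445821, plus strand: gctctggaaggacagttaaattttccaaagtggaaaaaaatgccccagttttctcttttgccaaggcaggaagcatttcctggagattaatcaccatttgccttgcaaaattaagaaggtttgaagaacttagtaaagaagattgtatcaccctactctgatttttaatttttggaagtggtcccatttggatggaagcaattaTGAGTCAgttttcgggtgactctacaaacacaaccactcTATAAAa
Mmp10, chr9:7502092-7502341, plus strand: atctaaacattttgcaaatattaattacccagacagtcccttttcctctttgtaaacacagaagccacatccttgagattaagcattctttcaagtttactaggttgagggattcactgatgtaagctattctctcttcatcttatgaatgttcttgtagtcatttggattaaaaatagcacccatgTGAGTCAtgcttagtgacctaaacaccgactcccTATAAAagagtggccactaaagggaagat

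The windows of 8 of the 9 members were found. TGANTCA was present in 3 of the 8 first windows, beginning 35 bases before the start in Mmp13, 46 in Mmp3 and 63 in Mmp10. Both strands were searched for both motifs, TGANTCA reads the same on either strand, and no match of the 2 motifs overlapped. The same 3 windows held TATAAA, beginning 16, 7 and 29 bases before the start. The first Mmp12 window held neither motif, and the window of its second start held TGANTCA 44 bases before that start. Of all 32851 windows of this length in the RefSeq table, 6.75% held TGANTCA and 12.4% held TATAAA. The windows printed above were 37.2% to 40.4% G and C, the windows of Mmp14 (55.2%), Timp1 (54.4%), Timp3 (65.6%) and Timp2 (68.0%) were richer, and the median of all windows was 52.4%. A match is a description of the letters and not evidence of binding.

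The remaining members are spread over other chromosomes. Mmp14 lies on chromosome 14 (54431612 to 54445364, plus strand), Timp1 on chromosome X (20870166 to 20874735, plus), Timp2 on chromosome 11 (118301069 to 118355740, minus), Timp3 on chromosome 10 (86300372 to 86349506, plus) and Mmp2 on chromosome 8 (92827291 to 92853420, plus). The gene models of Timp1 and Timp3 lie within those of Syn1 and Syn3 on the opposite strand, Timp2 spans Cep295nl on its own strand, and the 3′ end of Mmp12 overlaps Mmp1b on the opposite strand. Syn3 had 6, 1, 7 and 0 counts in control, minP1, anti-PD-L1 and the combination. Syn1, Cep295nl and Mmp1b are not among the gene symbols of the count data. Whether counting used the strand is not given, so reads in these overlaps are uncertain.

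Mmp12, the macrophage elastase, was low in control and minP1 tumours, higher after anti-PD-L1 and highest after both agents. Control libraries held 5, 1 and 16 counts (14.3, 3.66 and 35.8 CPM in replicates 1 to 3, mean 17.9 ± 16.4, SD, n = 3) and minP1 libraries 12, 9 and 4 counts (45.2, 33.0 and 13.2 CPM, mean 30.4 ± 16.1). Anti-PD-L1 libraries held 36, 24 and 37 counts (218, 89.0 and 127 CPM, mean 145 ± 66.0). Combination libraries held 55, 55 and 68 counts (470, 328 and 384 CPM, mean 394 ± 71.2). Control and minP1 overlapped, every anti-PD-L1 library lay above all of these 6, and every combination library lay above every anti-PD-L1 library.

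Against control, Mmp12 rose by 2.78 ± 0.46 on the log2 scale with anti-PD-L1 (SE, adjusted p = 0.00496, edgeR's quasi-likelihood test with Benjamini-Hochberg adjustment over all genes tested). It rose by 4.26 ± 0.44 with the combination (edgeR adjusted p = 9.03e-07). The combination was higher than anti-PD-L1 alone by 1.48 ± 0.36 (edgeR adjusted p = 0.015) and higher than minP1 alone by 3.69 ± 0.43 (edgeR adjusted p = 1.11e-05). For minP1 against control the value was 0.58 ± 0.56 (edgeR adjusted p = 0.891). The comparisons that share control, anti-PD-L1 or minP1 libraries are not independent of each other.

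These calls of Mmp12 depended in 2 cases on single libraries. Without control replicate 2, the library with 1 count, the anti-PD-L1 change was 2.44 (edgeR adjusted p = 0.0583). For Mmp12, the combination against anti-PD-L1 alone was at 1.21 without anti-PD-L1 replicate 2 (edgeR adjusted p = 0.108), 1.40 without anti-PD-L1 replicate 3 (0.0853) and 1.37 without combination replicate 1 (0.0814). The combination against control kept a value between 3.92 and 5.27 whichever library was left out.

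**Figure D1:**
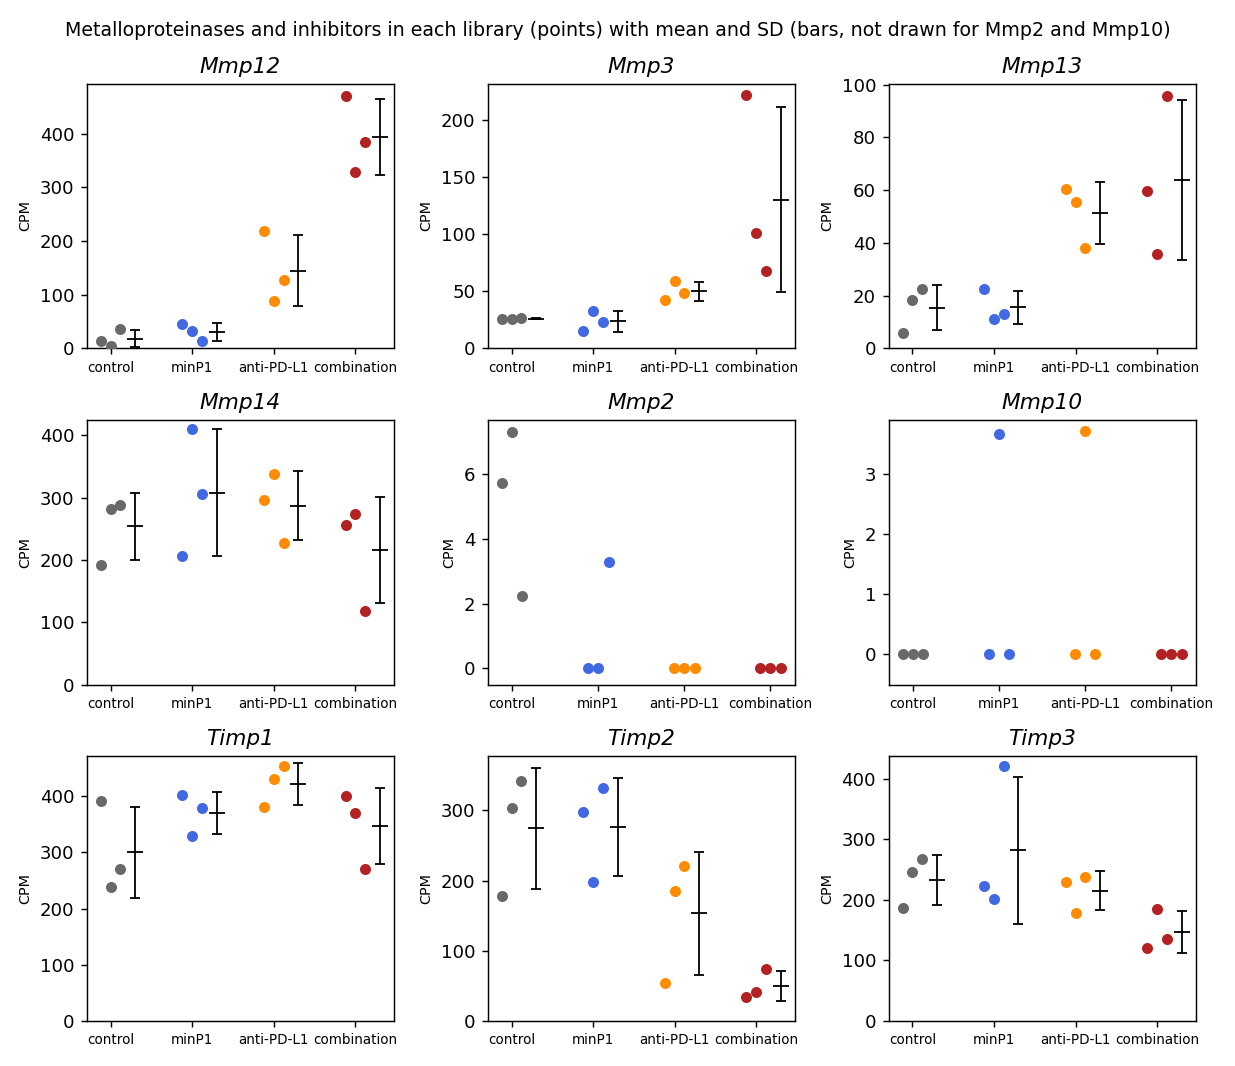
Level of each of the 9 genes in CPM (linear axis with its own range in each panel). Points are the 3 libraries of a group, in the order of their replicate numbers, and bars are the mean and SD, not drawn for Mmp2 (6 counts in all) and Mmp10 (2 counts in all). Mmp12 is at 3.66 to 35.8 CPM in control and 328 to 470 CPM in the combination, and Timp2 at 177 to 343 and 34.1 to 73.3 CPM.

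Mmp3 and Mmp13, the neighbours of Mmp12 on chromosome 9, were higher in the combination than in control and minP1. Mmp3, or stromelysin-1, has a broad range of substrates and activates other pro-metalloproteinases, and Mmp13, or collagenase-3, cuts fibrillar collagens. Mmp12, Mmp3 and Mmp13 had to be high in anti-PD-L1 or the combination to be tested at all: no control library was above the minimum of 34.8 CPM, counted on unscaled library totals, for any of them, and of the minP1 libraries only 1 was, for Mmp12.

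Mmp3 was at 25.8, 25.6 and 26.9 CPM in control (mean 26.1 ± 0.695, from 9, 7 and 12 counts) and at 15.1, 33.0 and 23.1 CPM in minP1 (mean 23.7 ± 8.97). It was at 42.3, 59.3 and 48.2 CPM in anti-PD-L1 (mean 49.9 ± 8.64) and at 222, 101 and 67.7 CPM in the combination (mean 130 ± 81.1, from 26, 17 and 12 counts). Combination replicate 1 was the highest, and all combination libraries were above all others. Mmp3 rose by 2.23 ± 0.42 against control (log2, edgeR adjusted p = 0.000321) and was 2.37 ± 0.44 higher than in minP1 (edgeR adjusted p = 0.000718). Against anti-PD-L1 alone the combination was at 1.29 ± 0.40 (edgeR adjusted p = 0.0517), just outside the threshold of 0.05. That value was 1.61 without combination replicate 3 (edgeR adjusted p = 0.0196), 1.30 without minP1 replicate 2 (0.036) and 1.28 without control replicate 1 (0.0487). It was 0.76 without combination replicate 1, the highest library (edgeR adjusted p = 0.361), and the other 8 leave-outs kept it outside the threshold, with an adjusted p of up to 0.174. Anti-PD-L1 against control gave 0.94 ± 0.44 (edgeR adjusted p = 0.262), although the 3 antibody libraries were above the 3 controls.

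Mmp13 was at 5.72, 18.3 and 22.4 CPM in control (mean 15.5 ± 8.68, from 2, 5 and 10 counts) and at 22.6, 11.0 and 13.2 CPM in minP1 (mean 15.6 ± 6.16). It was at 60.4, 55.6 and 37.9 CPM in anti-PD-L1 (mean 51.3 ± 11.9) and at 59.8, 35.8 and 95.9 CPM in the combination (mean 63.8 ± 30.3, from 7, 6 and 17 counts). The antibody-treated libraries, with or without the peptide, were above all libraries without the antibody, and those with and without the peptide overlapped. Mmp13 rose by 2.00 ± 0.52 with the combination against control (log2, edgeR adjusted p = 0.00494) and was 2.03 ± 0.54 higher than in minP1 (edgeR adjusted p = 0.011). Both calls were lost without combination replicate 3, at 1.54 (edgeR adjusted p = 0.0703) and 1.56 (0.102). Anti-PD-L1 against control was at 1.65 ± 0.51 (edgeR adjusted p = 0.1) and the combination against anti-PD-L1 at 0.36 ± 0.47 (0.684).

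Mmp14, the membrane-anchored metalloproteinase that cuts collagen at the cell surface, had the highest level of the 6 enzymes in control. Tags of 5′ ends need no correction for transcript length, so levels are compared between genes as CPM. Mmp14 was at 192, 282 and 289 CPM in control (mean 254 ± 54.1), 207, 410 and 306 CPM in minP1 (308 ± 102), 296, 337 and 227 CPM in anti-PD-L1 (287 ± 55.6) and 256, 275 and 118 CPM in the combination (216 ± 85.3). The 4 groups overlapped. Its log2 values were 0.28 ± 0.29, 0.17 ± 0.29 and -0.25 ± 0.31 for minP1, anti-PD-L1 and the combination against control (edgeR adjusted p of 0.904, 0.808 and 0.563).

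Mmp2 and Mmp10 were barely detected. Mmp2, or gelatinase A, had 2, 2 and 1 counts in the control libraries, 1 count in minP1 replicate 3 and none elsewhere. The 5 control counts amount to 4.41 CPM of the summed control totals, which is below the 5.92 CPM that a count of 0 allows in the shallower combination (3 counts of its summed total, counting error only). A difference between control and the combination was therefore not detectable at this depth. A count of 0 allows 3.75 CPM in anti-PD-L1, below the control level, which itself rests on 5 counts. Mmp10, or stromelysin-2, had 1 count in minP1 replicate 2 and 1 in anti-PD-L1 replicate 2. Both genes fell under the filter. Without a filter neither was called, and the adjusted p of Mmp2 against control was 0.688 for anti-PD-L1 and 0.444 for the combination (edgeR).

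Timp2 fell in the combination against each of the other groups. Its level was 177, 303 and 343 CPM in control (mean 275 ± 86.3, from 62, 83 and 153 counts) and 297, 198 and 333 CPM in minP1 (mean 276 ± 69.9). It was 54.4, 185 and 220 CPM in anti-PD-L1 (mean 153 ± 87.5) and 34.1, 41.8 and 73.3 CPM in the combination (mean 49.8 ± 20.8, from 4, 7 and 13 counts). Combination libraries were below every control and minP1 library, and overlapped anti-PD-L1 through its replicate 1, 1 of the libraries that stood apart. Timp2 fell by 2.41 on the log2 scale with the combination against control (SE 0.43, edgeR adjusted p = 0.000194) and fell by 2.42 against minP1 (SE 0.43, 0.000503). Against anti-PD-L1 alone Timp2 fell by 1.63 (SE 0.45, 0.0289). This last call was lost when any of 4 libraries was left out: it was -1.51 without anti-PD-L1 replicate 2 (edgeR adjusted p = 0.105), -1.29 without anti-PD-L1 replicate 3 (0.173), -1.42 without combination replicate 1 (0.144) and -1.45 without combination replicate 2 (0.123). Anti-PD-L1 against control was at -0.78 ± 0.34 (edgeR adjusted p = 0.228), at -0.42 without anti-PD-L1 replicate 1 (0.647) and at -1.08 without its replicate 3 (0.176), and minP1 against control at 0.01 ± 0.33 (0.999).

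Timp3, which is held in the matrix and also inhibits ADAM proteases, was lower in the combination than in minP1. It was at 186, 245 and 266 CPM in control (mean 233 ± 41.7), 222, 201 and 422 CPM in minP1 (282 ± 122), 230, 178 and 238 CPM in anti-PD-L1 (215 ± 32.4) and 120, 185 and 135 CPM in the combination (147 ± 34.2). All combination libraries were below all control and minP1 libraries, by a narrow margin from control replicate 1. Timp3 fell by 0.93 against minP1 (log2, SE 0.31, edgeR adjusted p = 0.0345). Against control the value was -0.65 ± 0.31 (edgeR adjusted p = 0.103). The call against minP1 was lost with DESeq2 (-0.91, adjusted p = 0.0593) and without minP1 replicate 3 (-0.48, edgeR adjusted p = 0.335), combination replicate 1 (-0.77, 0.151), replicate 2 (-1.08, 0.0541) or replicate 3 (-0.86, 0.0942).

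Timp1, an inducible secreted inhibitor, passed the test in no comparison. It was at 392, 238 and 271 CPM in control (mean 300.2 ± 81.3), 403, 330 and 379 CPM in minP1 (370.3 ± 37.3), 381, 430 and 455 CPM in anti-PD-L1 (422 ± 37.6) and 401, 370 and 271 CPM in the combination (347 ± 68.1). Every pair of groups overlapped. The log2 values against control were 0.30 ± 0.24 for minP1, 0.49 ± 0.24 for anti-PD-L1 and 0.20 ± 0.25 for the combination (edgeR adjusted p of 0.849, 0.28 and 0.564).

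**Figure D2:**
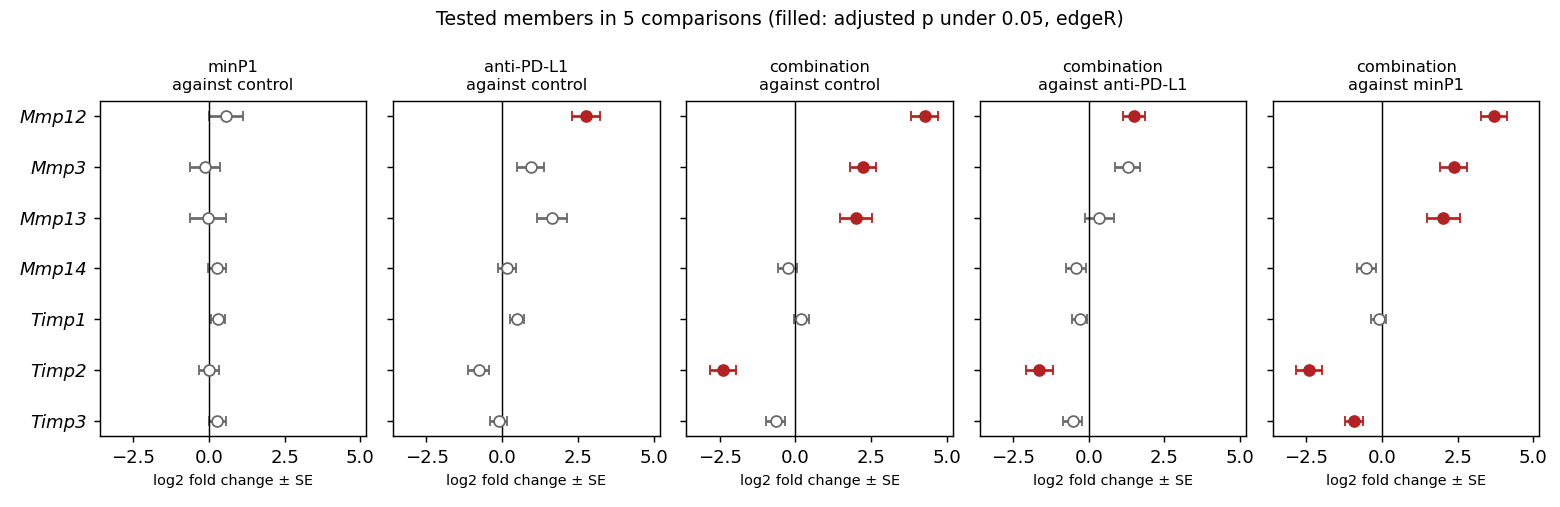
Log2 fold change with its SE for the 7 tested members in 5 comparisons, 1 panel each. Filled red points have an edgeR adjusted p under 0.05: Mmp12 is filled in every panel but minP1 against control, from 1.48 to 4.26, and Timp2 in the 3 panels of the combination, from -2.42 to -1.63.

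Read over all members, the counts differed between comparisons. With minP1 alone, 0 of the 9 members and 0 of the 5443 genes tested (0.0%) were called by edgeR, 383 genes had an unadjusted p under 0.05, and DESeq2 called 1 gene and no member. With anti-PD-L1 alone, 1 member was higher (Mmp12) and none lower, where 0.551% of all genes tested were called higher and 0.57% lower. With the combination against control, 3 members were higher (Mmp12, Mmp3 and Mmp13) beside 16.5% of all genes, and 1 was lower (Timp2) beside 18.3%. The combination against anti-PD-L1 gave 1 higher (Mmp12, 2.99% of all genes) and 1 lower (Timp2, 3.95%). Against minP1 it gave 3 higher (9.19% of all genes) and 2 lower (Timp2 and Timp3, 10.8%). In the combination against control 1892 of the 5443 genes were called, and the members' counts stand beside that. The 3 higher members had passed the filter through the groups in which they were high.

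Whether the peptide changed these genes more after the antibody than without it was tested as an interaction, the effect of adding the peptide to the antibody minus the effect of the peptide alone. No member and 0 of 5443 genes (0.0%) passed with edgeR, 600 genes had an unadjusted p under 0.05, and DESeq2 called 4 genes. The interaction was 0.91 ± 0.68 for Mmp12 (log2, edgeR adjusted p = 0.673), 1.43 ± 0.64 for Mmp3 (0.422) and -1.63 ± 0.56 for Timp2 (0.268). With minP1 replicate 2 and anti-PD-L1 replicate 1 both left out, Timp2 passed (-2.14 ± 0.47, edgeR adjusted p = 0.0183), as did 65 of all genes tested. These libraries had the lowest Timp2 level of their groups (198 and 54.4 CPM), so leaving them out raises both single-agent means. The counts of called members in the other comparisons were as before. The Mmp12 interaction turned to -0.13 without control replicate 3, and that of Mmp3 was 0.89 without combination replicate 1.

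Ratios within a library do not depend on its scaling. For every 100 counts of the 3 inhibitors together, Mmp12 had 1.89, 0.465 and 4.07 counts in control, 4.90, 4.52 and 1.16 in minP1, 32.7, 11.2 and 14.0 in anti-PD-L1 and 84.6, 55.0 and 80.0 in the combination. The group means were 2.14 ± 1.82, 3.53 ± 2.06, 19.3 ± 11.7 and 73.2 ± 15.9, and the last 2 groups overlapped neither each other nor the rest. An exact permutation test of 3 libraries against 3 cannot give a p below 0.1, so none was made.

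The make-up of the family differed in the same libraries. Mmp14 gave 76.8% to 83.7% of the counts on the 6 enzymes in control and 71.4% to 85.3% in minP1, but 48.0% to 61.9% in anti-PD-L1 and 17.8% to 37.1% in the combination. Mmp12 gave 1.09% to 9.52%, 3.67% to 15.6%, 16.3% to 35.3% and 44.4% to 57.6% in the same order, and so was the most abundant enzyme in each combination library. Among the inhibitors, Timp2 gave 23.5% to 38.9% of the counts in control, 27.1% to 32.2% in minP1, 8.18% to 24.2% in anti-PD-L1 and 6.15% to 15.3% in the combination. Timp1 gave 30.2% to 51.9%, 33.4% to 45.2%, 49.8% to 57.3% and 56.5% to 72.3%. These shares move with the changes already given and are not further evidence for them.

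**Figure D3:**
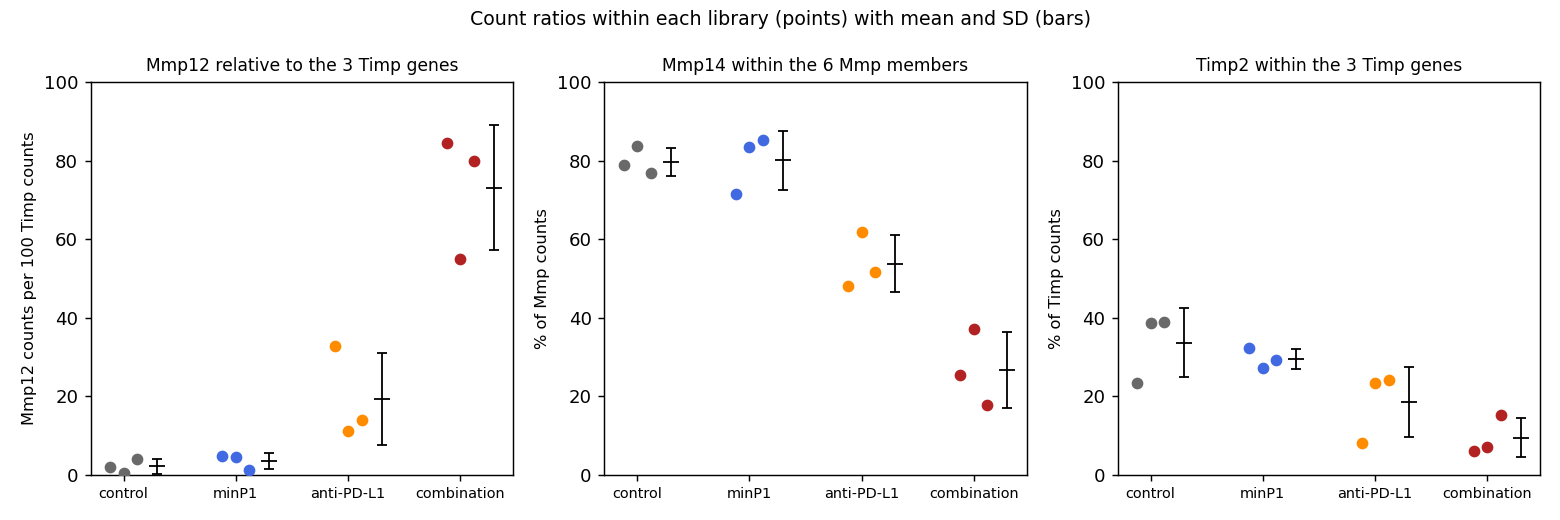
Count ratios within each library: Mmp12 counts per 100 counts of the 3 Timp genes (left), Mmp14 as a percentage of the counts on the 6 enzymes (middle) and Timp2 as a percentage of the Timp counts (right). Points are libraries and bars are the mean and SD of 3. Mmp12 per 100 Timp counts lies between 0.465 and 4.90 in the 6 libraries without antibody and between 55.0 and 84.6 in the combination.

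Some markers of several cell types also differed between the combination and control. Of the macrophage markers, Apoe, Ms4a7, C1qc and Mrc1 rose in the combination against control, Lyz2 fell, and C1qa and C1qb did not pass. All 12 had counts in every group. The 6 inflammatory monocyte markers in the tables summed to 341 to 649 CPM in control, 587 to 767 in minP1, 671 to 988 in anti-PD-L1 and 931 to 1280 in the combination. Ly6a had the largest part of this sum, with means of 202 CPM in control and 502 CPM in the combination. Ly6a, F10 and Plac8 rose in the combination against control, and Ly6c2 (log2 0.72) and Ccr2 (-0.23) did not pass. The 9 neutrophil markers, which include Mmp9, summed to 325 to 386 CPM in control, 245 to 308 in minP1, 238 to 319 in anti-PD-L1 and 615 to 691 in the combination. Retnlg was at 0 in the combination, and Ly6g was at 0 there and in control. Of the neutrophil markers, S100a9, Hdc, Csf3r and Mmp9 rose in the combination against control. Cxcr2, the highest in control, fell from 276 to 123 CPM (log2 -1.16, edgeR adjusted p = 0.0017). S100a8 was not tested, with 2, 3, 2 and 2 counts in control, minP1, anti-PD-L1 and the combination. Of the fibroblast markers tested, Sparc (-2.26), Pdgfra (-2.05) and Col1a2 (-0.81) fell on the log2 scale in the combination against control. Loxl1 rose (1.73), and Col1a1 (0.53) and Col3a1 (-0.035) did not pass. Among those not tested, Bgn went from 15.8 CPM in control to 0 in the combination, and Lum from 15.8 to 62.6 CPM. The sum of the endothelial markers was at most 76.8 CPM in any library. The part of cell composition in the values of the 9 genes was not tested.

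Of 18 other Mmp and Timp genes, 10 are in the tables, 2 were tested, and 3 had at least 30 counts over the 12 libraries. Mmp9, or gelatinase B, is stored in neutrophil granules and is also made by macrophages. Like Mmp12, Mmp3 and Mmp13 it passed the filter through a group in which it was high, here the combination alone. It had 3, 7 and 8 counts in control, minP1 and anti-PD-L1 and 72 in the combination, where it stood at 230, 143 and 118 CPM. The ratio of combination to control, scaled to the library sizes, was 55.6 with a 95% counting interval of 18.3 to 276, and edgeR's adjusted p was 1.04e-06. Mmp9 was also higher than in anti-PD-L1 (log2 3.79 ± 0.53, edgeR adjusted p = 0.000365) and minP1 (4.19 ± 0.54, 2.13e-05). Mmp19 rose from 16.3 ± 2.54 to 63.8 ± 32.2 CPM in the combination (1.91 ± 0.55, edgeR adjusted p = 0.00961). Mmp17 was not tested, with 10, 18, 8 and 3 counts in the 4 groups, and the other 7 had at most 18 counts each.

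Genes of 5 further lists were set beside the members: ADAM proteases, activators with the plasminogen system, other inhibitors and cell-surface regulators, matrix substrates, and inducers of metalloproteinase transcription. Together with the other family genes the lists held 101 genes, of which 87 are in the tables and 51 were tested. In the combination against control, 16 of the 51 were higher and 9 lower, where 16.5% and 18.3% of all genes tested were, with none called in either direction for minP1 or anti-PD-L1 alone. Among the 16 are Mmp9, Serpinb2 and Tnf, which passed the filter through the combination group alone, in which they were high. Against anti-PD-L1 the counts were 8 and 3, where 2.99% and 3.95% of all genes tested were called. Against minP1 they were 10 and 5, where 9.19% and 10.8% were. The counts per list below are for the combination against control and stand beside the 16.5% and 18.3% of all genes. The values that follow are log2 changes of the combination against control with their SE, and each named as risen or fallen had an edgeR adjusted p under 0.05.

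Activation and the plasminogen system had 4 of 9 tested genes higher and 1 lower (median 0.99, beside -0.06 over all genes). Plaur, the receptor that holds urokinase at the cell surface, rose by 1.94 ± 0.28, and its ligand Plau, urokinase itself, fell by 1.74 (SE 0.54). Plaur was at 130 ± 22.8 CPM in control and 504 ± 131 CPM in the combination, and Plau at 66.4 ± 27.1 and 19.3 ± 3.97 CPM. Serpinb2, an inhibitor of plasminogen activators, rose by 2.56 ± 0.66, the pro-protein convertase Furin by 1.51 ± 0.44 and the lysosomal protease Ctsb by 0.99 ± 0.24. Serpinb2 passed the filter through the combination group alone, with means of 11.3 CPM in control, 4.83 in minP1 and 10.1 in anti-PD-L1. The lysosomal protease Ctsd (0.32 ± 0.23) and the tissue activator Plat (-0.85 ± 0.60) did not pass.

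ADAM proteases shed cell-surface proteins. Of 5 tested, Adam15 rose by 0.80 ± 0.26 and Adam17, the sheddase of tumour necrosis factor, fell by 1.74 (SE 0.50), from 65.4 ± 22.4 to 18.2 ± 9.84 CPM (list median 0.51). Adam10 (-0.50 ± 0.36), Adamts1 (0.53 ± 0.36) and Adamts4 (0.51 ± 0.49) did not pass. Of 7 tested inhibitors and surface regulators 2 were higher (list median -0.16). Cd44, the hyaluronan receptor that can hold metalloproteinases at the membrane, rose by 1.93 ± 0.23, and the integrin subunit Itgav by 1.43 ± 0.28. The cysteine protease inhibitor Cst3 (-0.49 ± 0.26), the metalloproteinase inducer Bsg (-0.16 ± 0.26) and the clearance receptor Lrp1 (-0.23 ± 0.30) did not pass.

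Matrix substrates were split, with 3 of 13 higher and 3 lower (list median 0.36). Fbn1, or fibrillin-1, rose by 2.78 ± 0.46, the laminin subunit Lamc1 by 1.03 ± 0.29 and fibronectin (Fn1) by 0.59 ± 0.22. Sparc, a collagen-binding matrix protein, fell by 2.26 (SE 0.36), the collagen subunit Col1a2 by 0.81 (SE 0.21) and osteopontin (Spp1) by 0.75 (SE 0.26). Lamb1 (0.36 ± 0.24), Col1a1 (0.53 ± 0.30) and Col5a1 (0.22 ± 0.32) did not pass. Col1a1 and Col1a2 encode the chains of the same collagen, and their values had opposite signs.

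Inducers of metalloproteinase transcription had 4 of 15 tested genes higher and 4 lower (list median 0.36). The AP-1 motif is marked above in the windows of Mmp3, Mmp10 and Mmp13 and in that of the second Mmp12 start. Among the AP-1 subunits, Fos fell by 1.33 (SE 0.28), Fosl1 by 1.40 (SE 0.41) and Jun by 1.21 (SE 0.30), while Junb rose by 0.67 ± 0.26. Jund (0.36 ± 0.26) and Fosb (0.35 ± 0.32) did not pass, nor did Nfkb1 (-0.67 ± 0.34). The cytokine Tnf rose by 3.11 ± 0.62, from 7.81 ± 3.83 to 78.3 ± 37.0 CPM, the transcription factor Stat3 by 1.80 ± 0.27 and Ets2 by 1.43 ± 0.36. Tnf, with means of 16.0 CPM in minP1 and 19.7 CPM in anti-PD-L1, passed the filter through the combination group alone. Ets1 fell by 1.54 (SE 0.54).

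**Figure D4:**
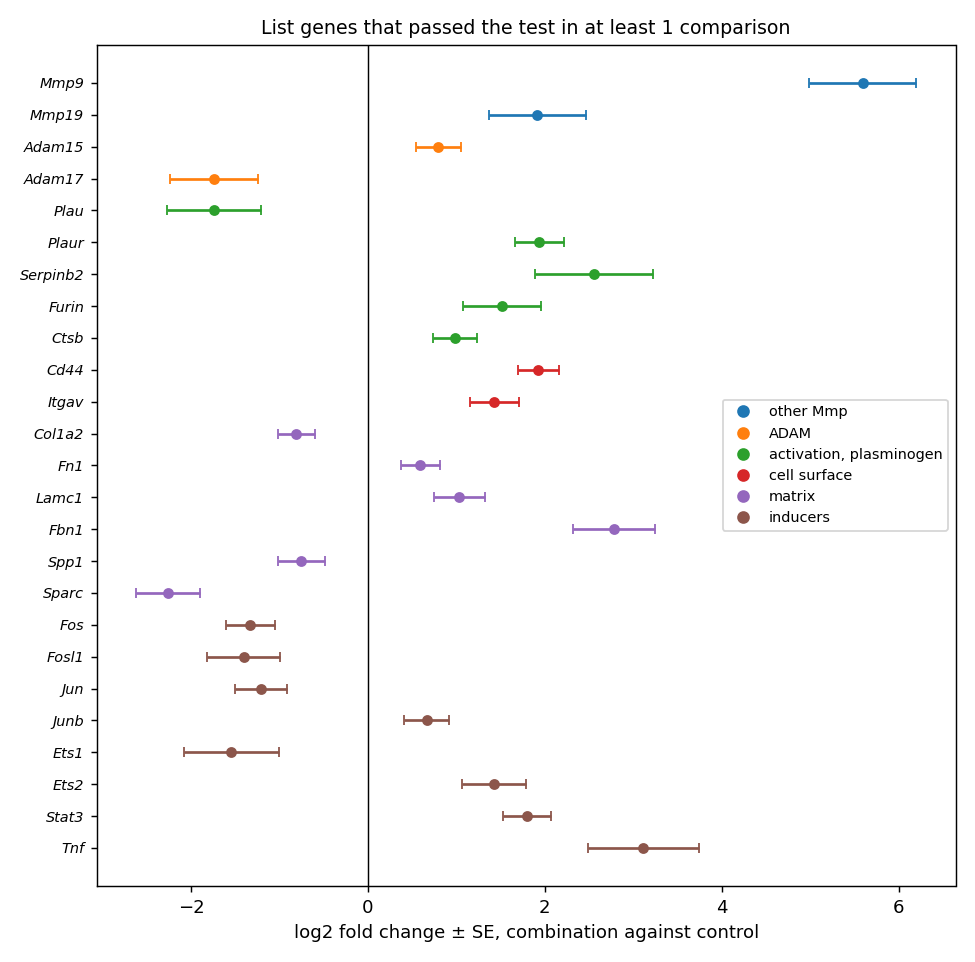
Log2 fold change with its SE in the combination against control for the 25 list genes that passed the test in at least 1 comparison, coloured by list. Points right of the line at 0 are higher in the combination: Mmp9 (5.60) and Tnf (3.11) lie farthest right and Sparc (-2.26) farthest left. Mmp9 and Tnf passed the filter through the combination group alone.

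The genes whose levels followed Mmp12 most closely over the 12 libraries were found by the root mean square difference in log2 CPM after each gene was centred on its own mean. They were S100a9 (0.58), Arg2 (0.73), Ctla4 (0.77), Kdm6b (0.85) and Fgl2 (0.86), where the median over all genes tested was 1.81. S100a9 encodes a subunit of the myeloid alarmin calprotectin and was at 17.5, 6.05, 54.4 and 175 CPM in control, minP1, anti-PD-L1 and the combination. Ctla4, a T cell checkpoint receptor, was at 13.1, 30.4, 47.7 and 142 CPM. The mitochondrial arginase Arg2 was at 10.4, 6.99, 36.7 and 137 CPM, the histone demethylase Kdm6b at 51.7, 84.8, 114 and 342 CPM, and the fibrinogen-like Fgl2 at 56.8, 78.9, 144 and 432 CPM. With a smaller prior count 3 of the 5 remained, and Hdc and Tnf took the other places. By their means, S100a9, Arg2, Ctla4, Hdc and Tnf were under the filter's minimum of 34.8 CPM in control and minP1. Like Mmp12, they were among the genes tested through groups in which they were high.

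The genes nearest to Timp1 were Hdac2 (0.17), Rtn4 (0.18), Gm28321 (0.19), Bnip2 (0.19) and Bcl7c (0.19), beside a median of 0.57 over all genes. The SD of Timp1 itself on this log2 scale was 0.29, about the distance that a gene with no change would have. The group means of these genes, like those of Timp1, were lowest in control and highest in anti-PD-L1. The endoplasmic reticulum protein Rtn4, for example, was at 549, 732, 793 and 752 CPM. The genes were chosen for their closeness to Timp1, which passed in no comparison. The shared order is therefore largely built in, and no shared response is read from it. The points of these comparisons share libraries and depth, and no test was made.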

How the data were processed

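The data were 12 libraries of 5′-end tags (5′SAGE-seq, Ion S5). The authors deposited raw counts (whole numbers) in 1 table per library, by gene symbol. The submitters' processing notes name the build mm10, DESeq2 with no version, Bowtie2 2.2.5 and R 3.6.1, without roles. The tool, annotation and strand setting used for counting were not given in the sources used here. No molecular identifiers are recorded, so an interval or a floor covers the error of counting alone.

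Genes were filtered with filterByExpr at its defaults (10 counts, 34.8 CPM on library totals, in at least 3 libraries), which left 5443 of 19921. Levels (CPM) are relative to the counts on tested genes, scaled by trimmed mean of M-values (TMM) factors. One edgeR quasi-likelihood fit (edgeR 4.0.16, limma 3.58.1, R 4.3.3) of all 12 libraries, with 1 mean per group, gave 6 contrasts, each adjusted by Benjamini-Hochberg over 5443 genes with a threshold of 0.05. The SE is the log2 fold change divided by the root of F, and the prior count of the folds was 0.125. The biological coefficient of variation was 22.5%. The scripts were tested on simulated data. Alternatives were DESeq2 1.42.0, other size factors, no filter, fits of the compared groups only, a replicate block, and leaving out libraries.

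Gene positions are from GENCODE M21 (GRCm38). Promoters are from RefSeq (GRCm38.p6). All 9 members are named. Of the other lists, every gene that passed in any comparison is named, with up to 3 that did not pass, by highest mean CPM, except that some items are not reported here. The 5 genes most like Mmp12 and Timp1 are named. Members and lists were chosen with earlier results of these data known.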

Additional observations from a re-analysis of the deposited data

How the results depend on the processing

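With 1 library left out at a time, the number of members called ranged from 0 to 1 for anti-PD-L1 against control, from 3 to 4 for the combination against control, from 0 to 3 against anti-PD-L1 and from 3 to 5 against minP1. It was 0 throughout for minP1 against control and the interaction, which had 1 (Timp2) with minP1 replicate 2 and anti-PD-L1 replicate 1 left out together. The Mmp12 value ranged from 2.43 to 3.80 for anti-PD-L1 against control, from 3.92 to 5.27 for the combination against control, from 1.21 to 1.88 against anti-PD-L1, from 3.34 to 4.08 against minP1, from 0.19 to 1.60 for minP1 against control and from -0.13 to 1.30 for the interaction. Values that were never called changed sign: for minP1 against control Mmp3 (-0.43 to 0.090), Mmp13 (-0.40 to 0.43, and 0.15 with both libraries left out), Timp2 (-0.22 to 0.21, and -0.029 with library totals only) and Timp3 (-0.13 to 0.47), for anti-PD-L1 against control Timp3 (-0.22 to 0.018), for the combination Mmp14 against control (-0.43 to 0.076), Mmp13 against anti-PD-L1 (-0.13 to 0.69) and Timp1 against minP1 (-0.16 to 0.058), and for the interaction Mmp13 (-0.11 to 0.77). The causes were not tested. With median-of-ratios size factors Mmp3 passed in the combination against anti-PD-L1 (1.32, adjusted p = 0.0473). In fits of the compared groups only, Mmp13 fell under the filter in the combination against control and against minP1.

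Over all genes, calls for anti-PD-L1 against control (61) were 167 without a filter, 126 in a fit of the compared groups, 173 with the replicate block, 24 with both libraries left out and 1 (without control replicate 2) to 169 with 1 left out. For the combination against anti-PD-L1 (378) they were 613 with both left out and 94 to 499 with 1, and against minP1 (1088) 600 to 1346. For minP1 against control they were 51 without a filter, 1 with DESeq2 and 0 to 5 with 1 left out, and for the interaction 37 without a filter, 4 with DESeq2, 16 with the replicate block, 65 with both left out and 0 to 8 with 1. Same-numbered libraries of different groups deviated together in 9 of 18 pairs (correlation above 0.1, median 0.0962), against 7 of 36 pairs with other numbers (median -0.043), and 7 of 12 libraries were closest to their own number. The main fit did not take the numbers as pairs, since not every pair was above 0.1. That rule cannot exclude a shared source of same-numbered libraries, so a fit with the number as a block was also made. The replicate block left the number of called members as it was in each comparison, and Mmp12 was at 4.30 for the combination against control. Library totals in place of TMM factors moved the median of all genes to -0.12 for anti-PD-L1 and -0.14 for the combination against control, and the share of higher genes among the anti-PD-L1 calls from 49.2% to 37.0%.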

Other observations

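The genes closest to Timp2 over the 12 libraries were looked up after the values of Timp2 were seen, by the same measure as for Mmp12. They were the integrin adaptor Tln1 (0.27), the ribosomal protein genes Rpl26 (0.29) and Rpl10a (0.31), the ligand gene Wnt10a (0.30) and the intermediate filament gene Vim (0.32), beside a median of 1.12 over all genes tested. Vim, which is abundant in mesenchymal cells and in leukocytes, had group means of 2549 ± 470 CPM (control), 1779 ± 615 (minP1), 1281 ± 533 (anti-PD-L1) and 517 ± 186 (combination, SD, n = 3). Rpl10a was at 795 ± 151, 625 ± 131, 442 ± 169 and 145 ± 60.1 CPM in the same order. Tln1 was at 80.9 ± 20.5, 76.9 ± 10.0, 38.9 ± 28.5 and 5.75 ± 5.65 CPM, and Wnt10a had no count in any combination library. No test was made.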
